A study of Mus musculus with 36 samples.

Results

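The genes described here encode the proteins of the mitochondrial ribosome (MRP genes), measured in the blood of irradiated mice. They were taken by name, as every array probe whose annotated gene symbol is Mrpl or Mrps followed by a number. This gave 103 of the 39429 probes of the array, for 77 genes: 50 of the large subunit, 26 of the small subunit, and Mrps36, which carries a small-subunit name but is now placed in the 2-oxoglutarate dehydrogenase complex. Blood came from 36 male C57BL/6J mice, drawn on day 7 after exposure, 6 for each of 6 groups, and each mouse had an array of its own. The mice were 8 to 10 weeks old when irradiated. Controls were sham-irradiated, and a second group received 3 Gy x-rays. A further 3 groups received a mixed field of x-rays and neutrons of 3 Gy in total, of which neutrons made up 5, 15, or 25%, and the last group received 0.75 Gy neutrons without added x-rays. The neutron source also emits some photons, so the last group is a neutron exposure as the array labels give it and not a pure beam. The question was whether, and in which direction, these genes differed from the controls and between x-rays and exposures with a neutron component.

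Mitochondria translate the few respiratory chain proteins encoded in their own DNA on ribosomes of their own. The RNA of these ribosomes is made in the organelle, while all of their proteins are encoded in the nucleus, made in the cytosol, and imported. Some of the proteins descend from bacterial ribosomal proteins and others are found only in mitochondria. In blood, white cells and platelets keep mitochondria, whereas red cells lose their mitochondria and ribosomes as they mature.

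The results turn on a small number of probes, and their sequences are given first so that each can be placed. Each probe is 60 bases long and the first 30 are printed in lower case, as the deposited scanner files hold them. The Mrps21 probe lies at chr3:95666577-95666636 and the Mrpl32 probe at chr13:14702894-14702953 of the mm9 build. Those of Mrpl20 and Mrpl57 lie at chr4:155182878-155182937 and chr14:58445650-58445709, and that of Mrps9 has no position in the array annotation. Mrps14 has 3 probes, of which 1 was not above background and the other 2 are shown because their readings went opposite ways. The brighter, at chr1:162129889-162129948, is listed as Mrps14 a and was the one tested, and the dimmer, at chr1:162130380-162130439, is listed as Mrps14 b.
Mrps21: ctttctttatccagccaagttctgttactt
Mrpl32: tgtggatattgctatgagaaagtacgccag
Mrps14 a: attgaattgtctttcaactttaaagcatag
Mrps14 b: gtgctgatggttgcacgggatctgttttca
Mrpl20: tcagtgacacggccccaaactgtcctgtaa
Mrpl57: gaaatggtcctaacccttcaagattatgga
Mrps9: tctaatttactttcccatcacacaggacag

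Many MRP promoters hold the palindromic motif of NRF1, a transcription factor known for its role at nuclear genes of mitochondrial proteins. RefSeq promoters (GRCm38.p6, 250 bases before to 50 after the gene start) were found for 67 of the 76 genes above background. Its letters, taken as GCGC, any base, and TGCGC and searched on both strands, were present in 13 of them (19.4%), against 5.19% of the promoters of all 27025 genes. The letters CCGGAAGT, bound by ETS factors such as GABP, were present in 12 (17.9%, against 4.31%), and AAGATGGC, bound by YY1, also in 12 (17.9%, against 3.19%). These are descriptions of the sequence and say nothing on binding. The stretch from 110 bases before to 10 after the gene start is shown for 4 of the genes that lay highest or lowest after irradiation, 2 of each kind and with the NRF1 letters in capitals. It lies at chr3:95871505-95871624 on the minus strand for Mrps21, at chr13:14613028-14613147 on the minus strand for Mrpl32, at chr1:42851123-42851242 on the plus strand for Mrps9, and at chr11:120484527-120484646 on the plus strand for Mrpl12.
Mrps21: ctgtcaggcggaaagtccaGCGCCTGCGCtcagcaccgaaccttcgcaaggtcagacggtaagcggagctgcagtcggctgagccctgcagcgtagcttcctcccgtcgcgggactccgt
Mrpl32: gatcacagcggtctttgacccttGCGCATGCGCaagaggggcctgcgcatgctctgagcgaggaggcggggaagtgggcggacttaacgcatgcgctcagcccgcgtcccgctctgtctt
Mrps9: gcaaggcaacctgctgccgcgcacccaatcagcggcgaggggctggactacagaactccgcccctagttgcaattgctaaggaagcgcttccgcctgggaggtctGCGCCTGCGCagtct
Mrpl12: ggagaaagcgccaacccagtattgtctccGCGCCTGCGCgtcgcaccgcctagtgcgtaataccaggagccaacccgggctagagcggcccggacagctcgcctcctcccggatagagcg
The motif was thus present both in genes that lay above the controls and in genes that lay below them. Its letters were not in the same window of Mrps14 and Mrpl20.

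Array intensity was read as log2 signal with the median of each array set to 0, so that a level is a log2 distance from the middle of its own array, and levels of different probes are not compared. Of the 77 genes, 76 were significantly above background with at least 1 probe on over 75% of the arrays, and Mrpl21 was not. The signal of 67 genes was well above background on all 36 arrays, and no MRP probe was saturated. A gene was tested if 20% of the arrays or more differed at least 1.5-fold from the median of its probe, which held for 63 of the 76. The other 13 (Mrps30, Mrpl33, Mrpl18, Mrpl16, Mrps15, Mrpl54, Mrpl10, Mrpl53, Mrpl36, Mrps33, Mrps18c, Mrpl55, and Mrpl48) varied less than this and were not tested. Counts below are therefore out of 63, and a gene is counted as called at a p below 0.001 with an adjusted p below 0.05 over all 15169 genes tested. The fit was made with limma on the 12 arrays of each comparison.

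The arrays themselves were uneven. Before centring, the array median lay between 4.33 and 4.70 (log2 intensity) in the controls, and between 2.94 and 4.23 in the x-ray and 3.22 and 3.93 in the neutron group, below all controls. In the mixed fields it lay between 2.77 and 5.30. The arrays were scanned in 4 sessions: 5 arrays of the controls and 5 of the x-ray group shared the first, 5 each of the 5 and 15% fields the second, all of the 25% field and the neutron group the third, and 1 array of each of the other 4 groups the last. Session and exposure cannot be told apart for the 25% field and the neutron group, and for the 5 and 15% fields only 1 array of each shared a session with a control. Because total signal differed, the gap between the MRP genes and the other genes of the same array is given first. It needs no scaling between arrays, but it may still vary with array intensity.

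Within the arrays, the gap between the MRP median and the median of all genes was on average smaller after neutrons and after x-rays than in controls. Its size is not an expression level, since probes differ, and only its change between groups is read. The median of the 76 MRP genes exceeded the median of all 17430 genes above background by 1.86 to 2.03 on the log2 scale in the 6 controls (mean 1.93, SD 0.057). In the 6 neutron mice the gap was 1.52 to 1.79 (mean 1.68, SD 0.099), below every control. In the x-ray mice it ran from 1.05 to 2.08 (mean 1.69, SD 0.35), with 5 mice below every control and 1 above them all. In the mixed fields it was 1.62 to 2.82 at 5% (mean 2.03, SD 0.43), 1.37 to 2.66 at 15% (mean 1.88, SD 0.48), and 1.73 to 2.51 at 25% (mean 2.05, SD 0.29), ranges that enclosed the controls. The neutron and x-ray means were close, while the neutron mice spread less than those of the x-ray and mixed field groups. Among x-ray mice the dimmest array before centring, replicate 5 (2.94), had the smallest gap, and the brightest, replicate 1 (4.23), the largest. The dimmest array also had the smallest gap in the neutron group (replicate 4, 3.22, gap 1.52) and in the 25% field (replicate 5, 3.60, gap 1.73). In the other groups it did not. The dimmest 5% array, replicate 2 (2.77), had a gap of 1.75, where the smallest was 1.62. The dimmest 15% array, replicate 1 (2.84), had 1.56 (smallest 1.37), and the dimmest control, replicate 2 (4.33), had 1.93 (smallest 1.86). Whether array intensity had a part in the narrower gaps was not tested. In bulk blood, fewer cells of a type and less RNA per cell cannot be told apart, so these values refer to the blood sample as a whole.

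**Figure D1:**
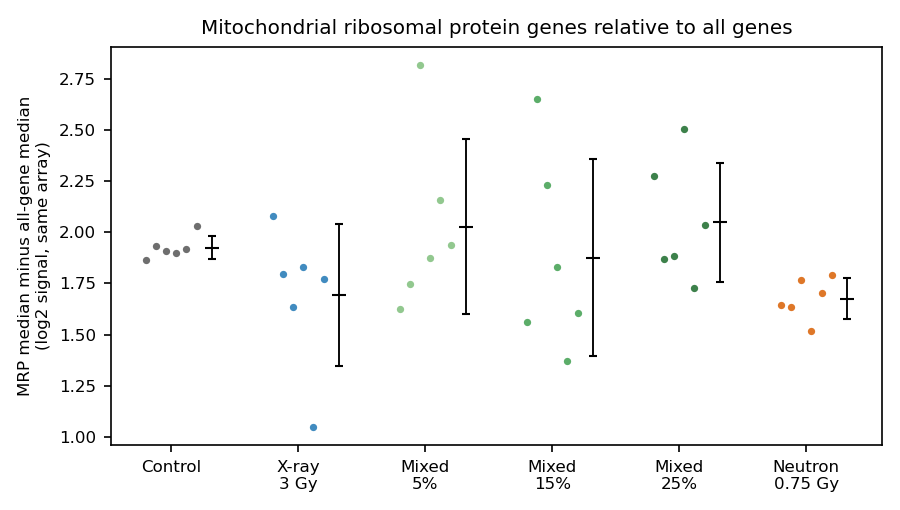
For each of the 36 mice, grouped by exposure on the x axis, the y axis gives the median of 76 MRP genes minus the median of all genes above background of the same array (log2). Dots are mice and bars are the mean ± SD of 6 mice; the 6 neutron mice lie between 1.52 and 1.79, all below the control range of 1.86 to 2.03.

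Compared gene by gene with the controls after x-rays, most MRP genes had a negative difference but few passed the threshold. Of 63 genes, 4 were called higher and 5 lower (6.35 and 7.94%), against 12.9% and 16.8% of all genes tested. The median MRP difference was -0.82 on the log2 scale, against -0.10 over all genes, with 54 of 63 values below 0, and it was negative under each scaling tried except relative to the MRP median of each array, which sets the family itself near 0 and gave 0.28 over the 19 genes then tested. At the adjusted p alone the count was 45 of 63 (71.4%), with 6 higher and 39 lower, against 58.9% of all genes, so the limit on the unadjusted p sets much of the low count. With arrays scaled on the 75th percentile the split was 6 higher and 1 lower of 33 tested, and relative to spike-ins 1 higher and 47 lower of 76. Relative to spike-ins the median of all genes was itself -1.20, against -1.72 over the MRP genes. All 6 x-ray mice lay below all 6 controls for 18 genes (28.6%, against 17% of all genes). The 5 genes called lower were Mrps16, Mrpl49, Mrpl41, Mrpl24, and Mrps34, of which Mrpl49 and Mrpl24 are named because the count is small and not by the naming rule. The total of 9 calls depended on single arrays: it was 21 without x-ray replicate 1 and 14 without replicate 5, against 3 to 5 without x-ray replicate 2 or 3 or without control replicate 1, 2, 3, 5, or 6.

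At 5%, 6 genes were called higher and 1 lower, against 9.03% and 14% of all genes. At 15%, 8 were called higher and 3 lower, against 12.5% and 16.5%, and at 25%, 6 higher and 1 lower, against 10.8% and 13.8%. On the 75th percentile the 3 fields gave 7 and 2, 8 and 3, and 9 and 1 of 33 tested. With quantile normalization each field gave 5 higher and 5 lower of 40 tested, and relative to spike-ins the splits were 0 and 10, 1 and 13, and 2 and 1 of 76. Relative to spike-ins the medians of all genes were themselves -1.51, -1.36, and -0.99, against -1.47, -1.43, and -0.95 over the MRP genes. With the adjusted p as the only threshold, 20, 24, and 20 genes passed (31.7, 38.1, and 31.7%), against 44.4%, 49.7%, and 46.8% of all genes. The 3 fields had median MRP differences of -0.16, -0.31, and -0.15 in this order, against -0.07, -0.01, and -0.11 over all genes. These 3 medians kept no firm direction, since with arrays scaled on the 75th percentile and no fold filter they were 0.05, 0.04, and 0.04. With the scan session as a block, which leaves the comparison to the 1 array of each group in the shared session, the medians at 5 and 15% were 0.05 and 0.15. Without replicate 3 of the 5% field, the highest of its group, the count at 5% was 12, with 5 higher and 7 lower.

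After neutrons, of 63 genes, 2 were called higher and 21 lower (3.17 and 33.3%), against 16.4% and 20.4% of all genes. The median difference was -0.55, against -0.11 over all genes, and it was negative under each scaling tried except relative to the MRP median of each array (0.51 over 19 genes). All 6 neutron mice lay below all controls for 31 genes (49.2%, against 20.2%), and 46 passed at an adjusted p below 0.05 alone (73%, against 59.8%). The split was 6 higher and 15 lower of 33 tested on the 75th percentile, and 0 and 75 of 76 relative to spike-ins. Relative to spike-ins the median of all genes was itself -2.05, against -2.31 over the MRP genes, so that count is mostly a fall shared by all genes. The count was 22 to 25 when any 1 array was left out. It was 1 after normexp background correction and 6 in a single model over all 36 arrays, with 5 of the 6 lower, where x-rays gave 11 lower. The median SE over the MRP genes was 0.15 after neutrons, against 0.25 to 0.28 after x-rays and mixed fields, so the same difference passed more readily after neutrons.

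**Figure D2:**
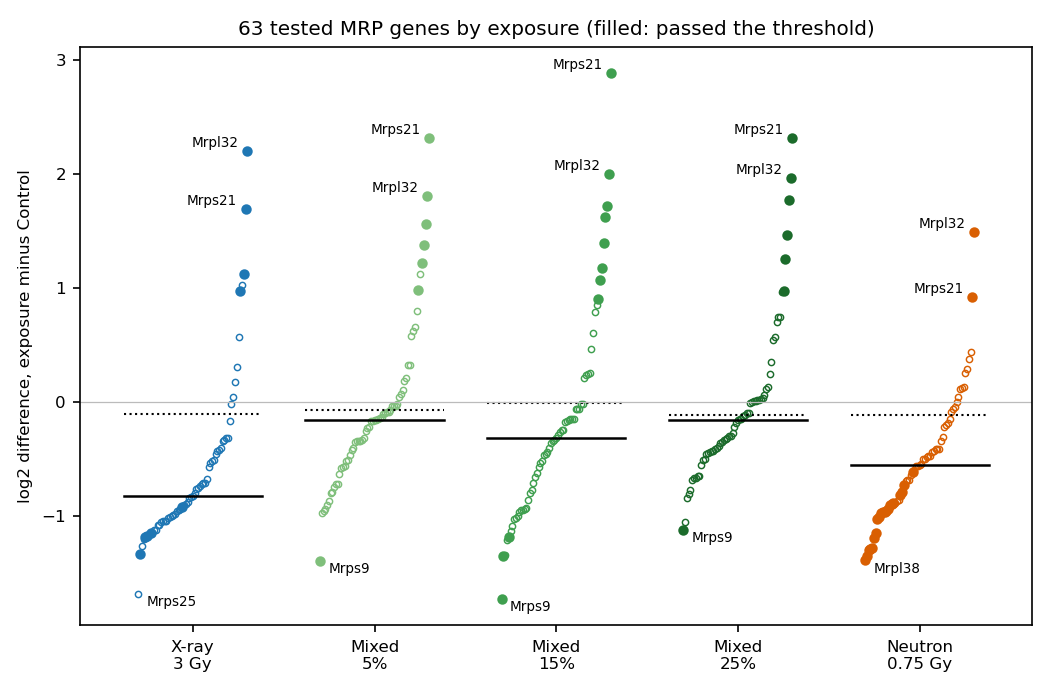
Log2 difference from controls (y axis) of the 63 tested MRP genes for each of the 5 exposures (x axis); each point is a gene, filled where called. The solid line is the MRP median and the dotted line the median of all 15169 genes tested; filled points lie mostly above 0 for the mixed fields (6, 8, and 6 higher) and mostly below 0 for neutrons (21 lower).

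A small set of MRP genes lay well above the controls, opposite to most of the family. Mrps21 (bS21m, a small-subunit protein with a bacterial homologue) and Mrpl32 (bL32m, a large-subunit protein that is cut by the m-AAA protease before it joins the ribosome) were called higher in all 5 exposures. The Mrps21 level was 6.92 at the lowest, 7.09 at the median, and 7.52 at the highest in controls. After x-rays these values were 8.04, 8.87, and 9.36, after the 15% field 8.59, 10.06, and 10.99, and after neutrons 7.89, 8.06, and 8.26. No exposed mouse in any of the 5 groups fell within the control range. Mrps21 thus rose by 1.69 ± 0.23 (SE) after x-rays (limma adjusted p = 6.7e-05), by 2.31 ± 0.31 at 5%, 2.88 ± 0.33 at 15%, and 2.32 ± 0.23 at 25%, and by 0.92 ± 0.13 after neutrons (limma adjusted p = 6.6e-05). As linear folds the 15% and neutron values are 7.37 and 1.89.

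Mrpl32 had control levels of 5.23, 5.50, and 5.87 (lowest, median, highest), x-ray levels of 7.34, 7.76, and 7.98, and neutron levels of 6.77, 6.99, and 7.26. It rose by 2.20 ± 0.18 after x-rays, 1.81 ± 0.30 at 5%, 2.00 ± 0.20 at 15%, 1.96 ± 0.28 at 25%, and 1.49 ± 0.15 after neutrons (limma adjusted p = 0.000335 at 5% and below this in the others). All 30 exposed mice were above all controls. The direction after neutrons depended on the scaling: relative to spike-in controls, under which the median of all genes moved by -2.05, Mrps21 had a difference of -0.95 and Mrpl32 of -0.38, and after normexp background correction, under which the median of all genes moved by -1.19, these were -0.77 and -0.17. Normexp also turned Mrpl32 to -0.16 at 5%. Set against the MRP median of the same array, a comparison chosen after seeing the data, both genes were called higher in all 5 exposures, Mrps21 by 1.43 and Mrpl32 by 2.00 after neutrons.

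Mrps14 (uS14m) and Mrpl20 (bL20m), both with bacterial homologues, were called higher after x-rays and all 3 mixed fields. Of 29 alternative settings, the x-ray call of Mrps14 held in 12 and was lost in 17, and that of Mrpl20 held in 24. Mrps14 had control levels of 4.18, 4.45, and 4.75, and levels of 5.45, 6.30, and 6.72 at 15%, with differences of 0.98 ± 0.22 after x-rays, 1.56 ± 0.24 at 5%, 1.72 ± 0.23 at 15%, and 1.77 ± 0.21 at 25%. After neutrons its levels were 4.44, 4.74, and 4.91, which overlap the controls (difference 0.25, limma adjusted p = 0.118). Mrpl20 rose by 1.13 ± 0.22 after x-rays, 1.38 ± 0.23 at 5%, 1.62 ± 0.23 at 15%, and 1.46 ± 0.22 at 25%, and differed by 0.29 ± 0.14 after neutrons (limma adjusted p = 0.102). With arrays scaled on the 75th percentile the neutron differences of Mrps14 and Mrpl20 were 0.52 and 0.55 and both were called, and relative to spike-ins they were -1.62 and -1.59. After normexp, Mrps14 and Mrpl20 read -0.28 and -0.64 at 5%. The second probe of Mrps14 read the other way from the tested one: its differences were -0.85, -0.48, -0.19, -0.23, and -0.39 in the 5 exposures, at a control level of 0.43 ± 0.33 (SD, n = 6). The third Mrps14 probe was not above background, so the rise of Mrps14 is a reading of 1 probe only.

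Mrpl57, a mitochondria-specific protein of the large subunit, and Mrpl30 (uL30m) were called higher in the 3 mixed fields. Mrpl57 rose by 1.22, 1.18, and 1.25 at 5, 15, and 25%, with a difference of 1.03 ± 0.25 after x-rays and 0.04 ± 0.13 after neutrons, neither called. Mrpl30 rose by 0.99, 1.07, and 0.97, with 0.57 after x-rays and 0.44 after neutrons. Its calls held in 11 of 27 alternative settings at 5%, 21 of 27 at 15%, and 16 of 26 at 25%. The second Mrpl30 probe, dimmer and annotated on chromosome 1 as the gene is, was not the one tested. The rises given here for Mrpl30 are therefore readings of 1 probe, annotated on another chromosome than the gene. Relative to spike-ins the values of Mrpl57 at 5 and 15% were -0.15 and -0.10, and those of Mrpl30 -0.38 and -0.21, and after normexp their values at 5% were -0.82 and -1.32. At 15% the further calls were Mrps36, with 0.91 ± 0.22, and Mrpl37, with 1.40 ± 0.25, the latter named after its value was seen. The Mrps36 call held in 8 of 29 alternative settings, and its value lay between -0.12 and -0.37 in 4 of them. The tested probes of Mrpl30 and Mrps36 are annotated on a chromosome other than that of the gene in RefSeq, so near-identical copies elsewhere may share their signal. The second Mrps36 probe, also on another chromosome, read -0.25 at 15%. Under other scalings the filter and the choice of probe were made anew, so either probe could stand for Mrps36. Its turn of sign there need not be an effect of the scaling.

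**Figure D3:**
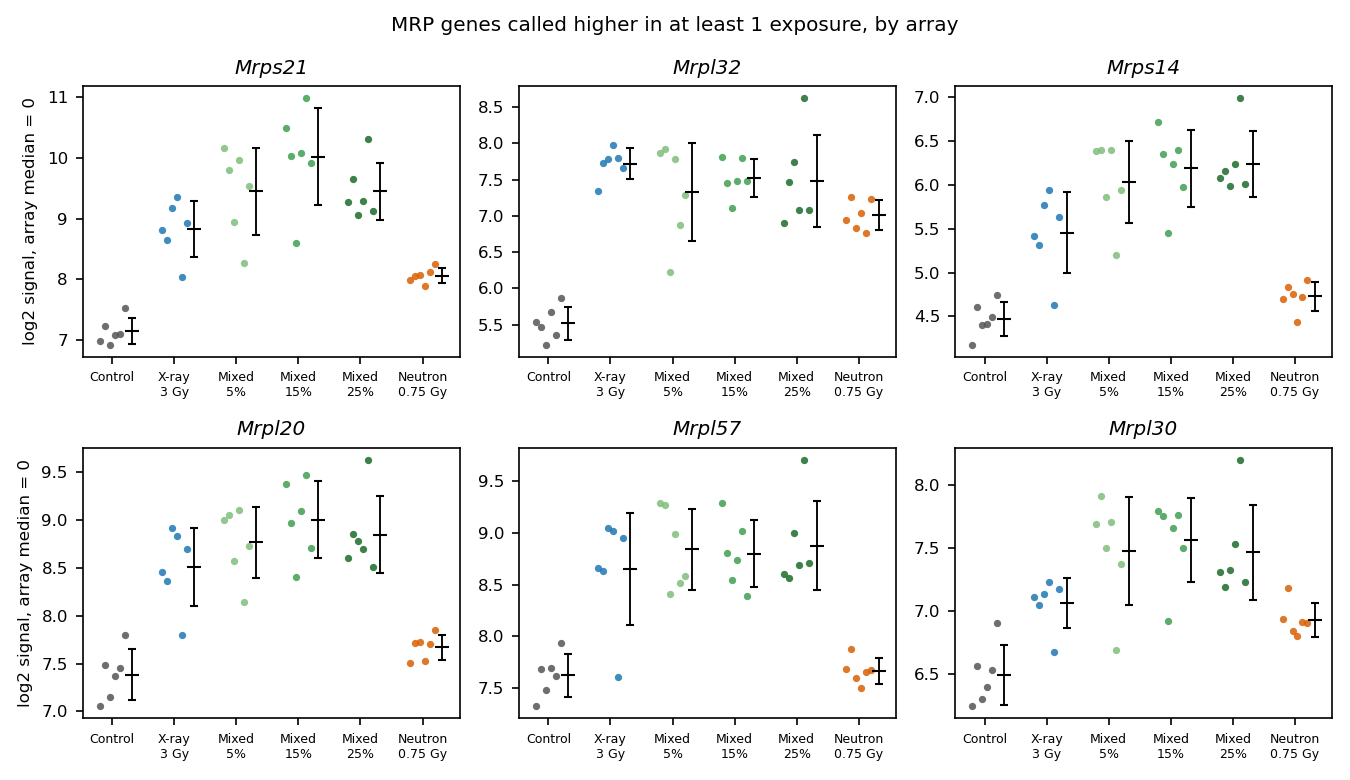
Level of 6 MRP genes called higher in at least 1 exposure (Mrps21, Mrpl32, Mrps14, Mrpl20, Mrpl57, Mrpl30), as log2 intensity centred on the array median (y axis), by group (x axis). Dots are mice and bars the mean ± SD of 6 mice; for Mrps21 and Mrpl32 every exposed mouse lies above the highest control, 7.52 and 5.87, while the neutron mice of Mrps14, Mrpl20, and Mrpl57 overlap the controls.

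Among the lower genes Mrps9 (uS9m, with a bacterial homologue) was called in the most exposures. Its control levels were 3.64, 3.85, and 4.28, against 2.13, 2.31, and 3.27 at 5%, 1.37, 2.17, and 3.29 at 15%, 2.15, 2.89, and 3.27 for the 25% field, and 2.20, 2.67, and 3.02 after neutrons. All exposed mice of these groups lay below all controls. Mrps9 fell by 1.39 ± 0.25 at 5%, 1.72 ± 0.32 at 15%, 1.12 ± 0.22 at 25%, and 1.29 ± 0.18 after neutrons, with limma adjusted p values of 0.000648, 0.000596, 0.00108, and 4.2e-05. After x-rays its levels were 1.61, 2.85, and 3.62, all below the controls as well, and the difference of -1.15 ± 0.30 did not pass the unadjusted threshold (limma adjusted p = 0.0052). Mrps9 was lower under every scaling tried, and it was also called lower in the 4 neutron-containing exposures when set against the MRP median of the same array. A difference between x-rays and the mixed fields is not shown by this, since none was called for any MRP gene.

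The 21 genes called lower after neutrons came from both subunits and from conserved and mitochondria-specific proteins alike. Mrpl12 (bL12m), the stalk protein that also binds the mitochondrial RNA polymerase, fell by 1.35 ± 0.15 (limma adjusted p = 6e-06), from control levels of 5.61, 5.79, and 5.98 to 4.13, 4.41, and 4.87. Mrpl38, a mitochondria-specific protein of the large subunit, fell by 1.38 ± 0.15 (limma adjusted p = 8e-06), from 3.23, 3.43, and 3.77 to 1.75, 2.07, and 2.40. In neither gene did the neutron and control ranges meet. Mrpl42, also mitochondria-specific, fell by 1.28 ± 0.23 to levels of 1.13, 2.02, and 2.61. The remaining falls ran down to 0.61 on the log2 scale. In the 5 and 15% fields Mrpl12 and Mrpl38 spread beyond the control range on both sides: Mrpl12 lay between 4.50 and 7.54 at 5% and between 3.43 and 6.88 at 15%, against 5.61 to 5.98 in the controls.

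Among MRP genes known from human mitochondrial disease, Mrps16, Mrps34, Mrpl3, Mrpl12, and Mrps22 were called lower in at least 1 exposure. The Mrps16 level fell by 1.33 ± 0.28 with x-rays (limma adjusted p = 0.00148) and by 1.00 ± 0.16 with neutrons (limma adjusted p = 0.000123). Its control levels of 6.88, 7.28, and 7.52 stood against 4.81, 5.98, and 6.75 after x-rays and 5.96, 6.22, and 6.59 after neutrons. Mrps34 likewise fell by 0.92 ± 0.21 and 0.73 ± 0.14 in these 2 exposures. Mrpl3 fell by 1.18 ± 0.26 at 15% and 0.96 ± 0.16 after neutrons, and Mrps22 by 0.96 ± 0.16 after neutrons. Mrps7 and Mrpl44 were called in no exposure, with x-ray differences of -0.99 ± 0.31 and -1.04 ± 0.28, which lay beside those of the called genes, and neutron differences of -0.60 ± 0.14 (limma adjusted p = 0.00298) and -0.22 ± 0.15 (limma adjusted p = 0.216). Of the paralogs Mrps18a and Mrps18b, neither was called, and their neutron differences were -0.41 and -0.48; Mrps18c varied too little to be tested. Mrpl41, a mitochondria-specific large-subunit protein, fell by 1.17 ± 0.26 after x-rays, 1.35 ± 0.30 at 15%, and 1.15 ± 0.16 after neutrons.

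**Figure D4:**
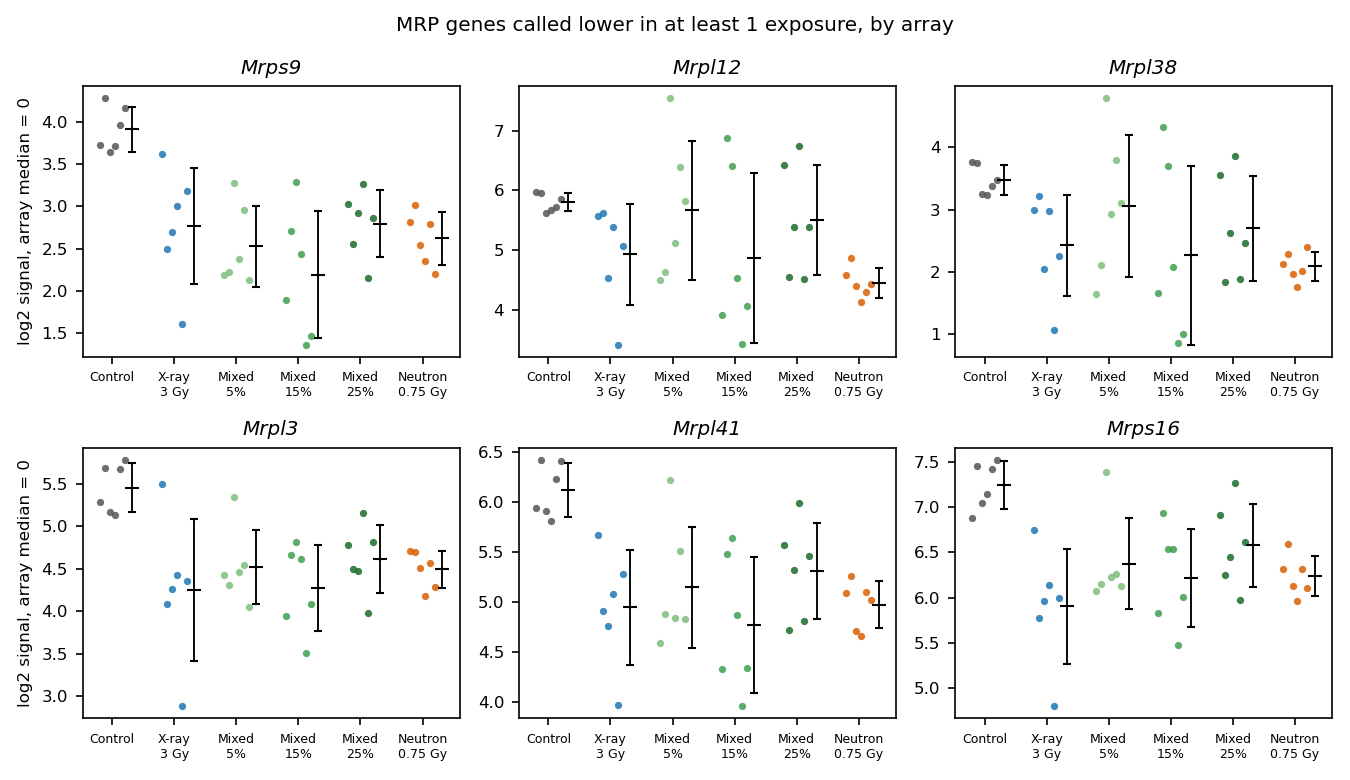
Level of 6 MRP genes called lower in at least 1 exposure (Mrps9, Mrpl12, Mrpl38, Mrpl3, Mrpl41, Mrps16), as log2 intensity centred on the array median (y axis), by group (x axis), with dots for mice and bars for the mean ± SD of 6 mice. For all 6 genes the neutron mice lie below every control, as for Mrpl12 at 4.13 to 4.87 against 5.61 to 5.98; the x-ray and mixed field mice spread more widely.

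Some genes have several probes, and these did not always agree. For 5 genes (Mrpl4, Mrpl43, Mrps7, Mrps23, and Mrps25, named for this reason) the brightest probe varied too little and a dimmer one was tested. For Mrpl4, called lower after neutrons with -0.90 ± 0.13, the brighter probe read 0.31. For Mrpl43 the brighter probe read -0.35 against -0.94 for the tested one. Mrps25 had the lowest difference after x-rays, -1.68 ± 0.43, which was not called, and its brighter probe read -0.44. The calls for Mrpl4 and Mrpl43 therefore depend on which probe stands for the gene.

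By subunit, 39 large-subunit and 23 small-subunit genes were tested. After neutrons 1 large-subunit gene was called higher and 12 lower (median -0.54), and 1 small-subunit gene higher and 9 lower (median -0.61), where 16.4% of all genes were called higher and 20.4% lower. After x-rays the counts were 2 higher and 3 lower in the large subunit (median -0.75) and 2 and 2 in the small (median -0.89), where 12.9% of all genes were higher and 16.8% lower. Among the small-subunit genes tested after neutrons, 4 of the 14 with a bacterial homologue and 5 of the 9 specific to mitochondria were called lower. In the large subunit these counts were 7 of 24 and 5 of 15. The members most often called higher (Mrps21, Mrpl32, Mrps14, Mrpl20) all have bacterial homologues, as do 24 of the 39 large-subunit and 14 of the 23 small-subunit genes tested. These are counts over genes on the same arrays, and no difference between the classes was tested.

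Between neutron-containing exposures and x-rays no MRP gene was called, in any of the 4 comparisons. Of all genes tested, 0, 4.07, 2.6, and 12.8% were called at 5, 15, and 25% and for neutrons. At an unadjusted p below 0.05, limma gave 14, 20, 20, and 16 of 63 MRP genes, against 3522, 4252, 4441, and 6065 of all 15169 genes. At an adjusted p below 0.05 alone the MRP counts were 0, 5, 1, and 8, where 0, 9.92, 5.16, and 28% of all genes passed. The median MRP differences from x-rays were 0.56, 0.49, 0.59, and 0.17, against 0.09, 0.12, 0.19, and 0.10 over all genes. The direction at 25% held under each scaling that was not set by the MRP genes themselves, but the others turned negative, at 5% after normexp background correction (-0.25), at 15% in the deposited expression table (-0.04), and for neutrons relative to spike-ins (-0.72), after normexp (-0.38), in the deposited table (-0.20), on the 75th percentile (-0.21), and on probes detected on all arrays (-0.08). Neutrons gave 1 to 7 lower calls against x-rays with the scalings other than the array median and normexp. In a single model over all 36 arrays the counts were 3, 9, 3, and 2, and without x-ray replicate 5 the neutron count was 4.

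Neutrons and the 25% field were the closest match in neutron dose, since 25% of 3 Gy equals 0.75 Gy, and their arrays were scanned in 1 session. The 2 exposures differ in the x-rays that the mixed field adds. Of 63 MRP genes, 61 were lower after neutrons alone, with a median of -0.43 against 0.06 over all genes, a median that was negative under every scaling tried. No gene was called higher and 5 lower (7.94%), against 4% and 7.33% of all genes, and 10 passed at an adjusted p below 0.05 alone (15.9%, against 26.1%). The 5 were Mrps14 (-1.52 ± 0.20, limma adjusted p = 0.000194), Mrps21 (-1.40 ± 0.22, limma adjusted p = 0.000629), Mrpl57 (-1.21 ± 0.21), Mrpl20 (-1.17 ± 0.21), and Mrpl14 (-1.01 ± 0.21), the last named after its value was seen. Of these, 4 are genes that had lain above the controls in the mixed fields. The 25% arrays enter both comparisons, so this overlap is partly built in and is not a separate result. With the slide as a block the count was 2 and the MRP median -0.06, and relative to the MRP median of each array no gene was called.

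Session and exposure could be separated in part for x-rays. In the first session, with 5 control and 5 x-ray arrays, the median MRP difference was -0.91 (all genes -0.12), and in the last, with 1 array of each, it was -0.54. Mrpl32 differed by 2.15 and 2.44 in these sessions, Mrps21 by 1.63 and 2.01, and Mrps16 by -1.39 and -1.05. In the last session the single 5% array differed from the single control by 1.65 for Mrpl32, 1.35 for Mrps21, and -0.68 for Mrps9, and the single 15% array by 1.88, 1.67, and -0.35. The signs of these 4 genes were the same within sessions as over all arrays. Other genes turned: at 15% the single pair gave 0.79 for Mrpl12, 0.45 for Mrpl38, 0.72 for Mrpl42, and 0.33 for Mrps22, which were below 0 over all arrays. The median MRP differences of the 5 and 15% arrays in that session were 0.05 and 0.15, from 1 array of each group.

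Other genes of mitochondrial translation (aminoacyl-tRNA synthetases, translation factors, and assembly genes) were called lower more often than all genes after x-rays and neutrons. At 5 and 25% they were called lower less often than all genes. Of 13 tested mitochondrial aminoacyl-tRNA synthetases, which charge tRNAs in the organelle, 8 were called lower after x-rays and 8 after neutrons, with medians of -1.31 and -1.04, against 16.8% and 20.4% of all genes. At 5, 15, and 25%, 1, 3, and 1 were called lower and 1 in each higher. Hars2, the histidyl enzyme, fell in all 5 exposures, by 1.34, 1.01, 1.12, 1.06, and 1.04. Of 11 translation factors, 3 were called lower after x-rays and 6 after neutrons, and of 17 mitoribosome assembly genes 5 and 8, with none higher in either list. At 5, 15, and 25% the lower calls were 0, 2, and 1 in the first of these and 2, 4, and 2 in the second, where 14, 16.5, and 13.8% of all genes were lower. Dhx30, an RNA helicase needed for assembly, fell in all 5 exposures, by 1.44, 1.25, 1.44, 1.37, and 1.14. Of 10 genes of mitochondrial DNA upkeep and transcription, 5, 2, 4, 2, and 4 were called lower, and Polg, the mitochondrial DNA polymerase, fell in all 5 exposures, by 1.46, 1.23, 1.79, 1.35, and 1.46. Among 5 tested mitoribosomal proteins with other names, Aurkaip1 rose at 5, 15, and 25% (1.03, 1.36, and 1.04), while Ptcd3 fell after x-rays, at 15%, and after neutrons, by 1.30, 1.58, and 1.37, both named after their values were seen. Of 5 tested regulators of such genes, which include Gabpa, 3, 0, 2, 1, and 1 were called lower.

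The respiratory chain genes, whose products assemble with those made on mitochondrial ribosomes, went the other way. Of 81 tested, 38, 47, 44, and 48 were called higher after x-rays and at 5, 15, and 25%, and 1 or 2 lower, where 12.9, 9.03, 12.5, and 10.8% of all genes were higher, with medians of 0.71, 1.15, 1.14, and 1.28. After neutrons 24 were called higher and 15 lower, with a median of 0.06, where 16.4% of all genes were higher and 20.4% lower. Cox7a2, a cytochrome c oxidase subunit, rose by 2.25, 2.56, 2.86, 2.85, and 1.37 in the 5 exposures, and Atp5k, a subunit of ATP synthase, by 2.07, 2.58, 2.86, 2.64, and 1.10. The proteins of the cytosolic ribosome were mixed: of 66 tested, 13 were called higher and 1 lower after x-rays, and 20 higher and 12 lower after neutrons, with medians of 0.19 and 0.06 and the same shares of all genes as above. The MRP medians were below those of both groups in each exposure. Other array scalings were not run for these lists.

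**Figure D5:**
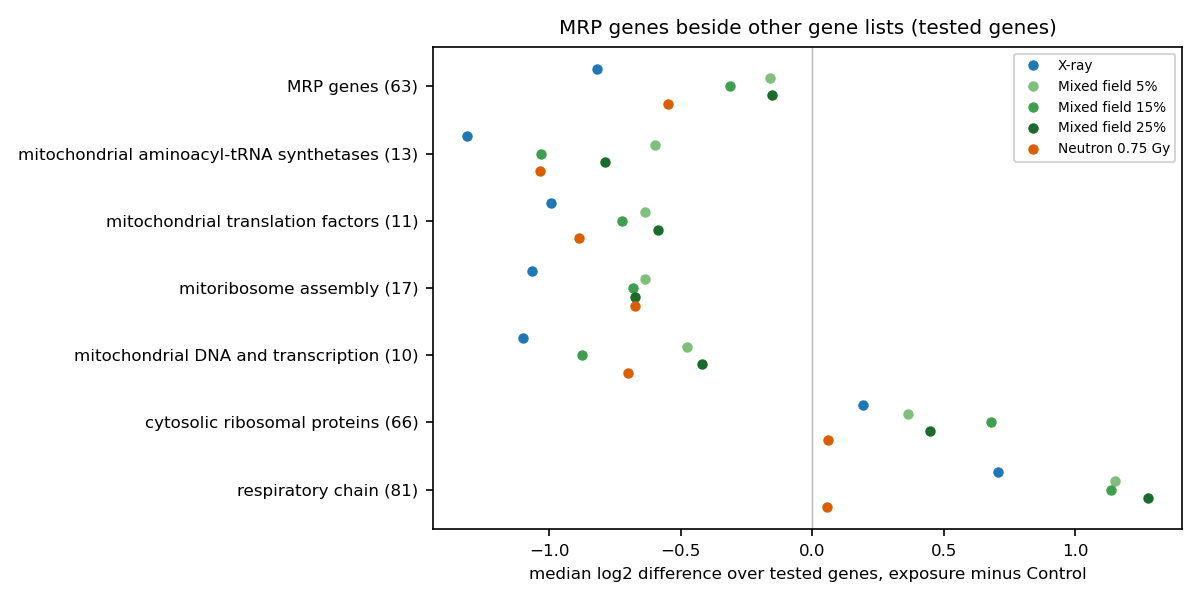
Median log2 difference from controls (x axis) over the tested genes of the MRP family and of other gene lists (rows, with the number of genes tested), with 1 coloured point for each of the 5 exposures. The respiratory chain lies at 0.71 to 1.28 after x-rays and mixed fields and at 0.06 after neutrons, while the MRP family lies at -0.15 to -0.82 and the mitochondrial aminoacyl-tRNA synthetases lie lower still.

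Marker genes of B cells, red cells, and proliferation differed from controls in most cases, and those of other cell types less often. Of all genes tested, 12.9, 9.03, 12.5, 10.8, and 16.4% were called higher in the 5 exposures, and 16.8, 14, 16.5, 13.8, and 20.4% lower. The counts of the other cell types, from few genes each, are not read as a change. All 8 B-cell markers (such as Cd79a) were called lower after x-rays and each mixed field, and 7 of 8 after neutrons. Their mean level was 6.18 to 6.93 in controls, 1.22 to 4.49 after x-rays, and 5.00 to 5.46 after neutrons. Of 7 tested red-cell markers (such as Alas2), 5, 6, 6, 5, and 7 were called higher, with mean levels of 8.68 to 9.51 in controls and 10.09 to 12.12 over the exposed mice. Of 6 proliferation markers 4, 6, 6, 6, and 4 were called higher. Of the T-cell markers 1, 3, 3, 2, and 0 were called lower, and no NK-cell marker was called. Monocyte markers were called higher after neutrons in 2 of 4 cases, platelet markers after 15 and 25% and neutrons in 2, 2, and 1 of 5, and 1 neutrophil marker was lower at 15, at 25%, and after neutrons. Their part in the MRP results was not tested.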

How the data were processed

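For each of 36 arrays the authors deposited linear scanner intensities, background-corrected within the array by Agilent Feature Extraction 12.0.2, with gene names and mm9 positions in the array annotation. The authors also deposited a table of normalized log2 values, used as an alternative. Each array is 1 mouse, and the number of arrays limits the precision. Intensities were log2-transformed, uniform spots of a probe averaged, and each array centred on its median, as the study's methods name. A probe was kept if it was uniform and significantly above background on over 75% of the arrays and differed at least 1.5-fold from its own median on 20% of them or more. The brightest remaining probe stood for its gene, which left 15169 genes. Each exposure was compared with controls, each neutron-containing exposure with x-rays, and neutrons with the 25% field, with limma 3.58.1 in R 4.3.3 on 12 arrays, and p values were Benjamini-Hochberg adjusted over all genes. The 5 comparisons with controls share the control arrays. The fit was tested on simulated data with 200 genes changed by 1.5 on the log2 scale. It found 57.5% of them for x-rays against controls and 82% for neutrons against controls, with 2 and 6 false calls. A change of this size was thus missed more often after x-rays. Figures were drawn with matplotlib 3.10.9. Members and gene lists were chosen with earlier results of these data known, and no test was made over them. Genes are named if among the 4 highest or 4 lowest MRP differences of an exposure, as disease genes or paralogs (Mrpl12, Mrpl3, Mrpl44, Mrps7, Mrps16, Mrps22, Mrps34, Mrps18a, Mrps18b, Mrps18c), or as Mrps36, and others are marked. In other lists, up to 3 genes called in at least 4 exposures could be named. Alternatives were other scalings (75th percentile, probes detected on all arrays, quantile, spike-ins), normexp background correction (offset 50), the deposited table, other filters, averaged probes, 1 model over 36 arrays, blocks for replicate number, slide, and scan session, array weights, the adjusted p alone, and each array left out in turn.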

Additional observations from a re-analysis of the deposited data

Results flagged for a closer look

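In 14 of the 144 sets of 6 levels that were checked, the highest or lowest mouse lay apart from the other 5 by Dixon's criterion, and chance gives about 1 in 20. The levels are log2 intensities centred on the array median. X-ray replicate 5 was lowest of its group for Mrpl30 (6.67, next 7.05), Mrpl57 (7.60, next 8.63), Mrps34 (4.87, next 5.50), and Mrps7 (0.45, next 1.79), and it also had the narrowest gap between the MRP genes and all genes. Replicate 3 of the 5% field had the highest median over the MRP genes (6.20, next 5.16) and the highest Mrps16 level (7.39, next 6.26). Replicate 5 of the 25% field was highest for Mrpl20 (9.63, next 8.86), Mrpl30 (8.20, next 7.53), and Mrps14 (6.99, next 6.24).

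Replicate 3 of the 15% field was lowest for Mrpl30 (6.92, next 7.50) and Mrps36 (4.58, next 5.26). The remaining single values were Mrpl42 in control replicate 3 (2.79, next 3.31), Mrpl30 in neutron replicate 2 (7.19, next 6.94), and Mrpl44 in neutron replicate 4 (3.35, next 3.75). Leaving out each of these arrays is part of the alternatives below.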

How the results depend on the processing

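Counts are MRP genes called, as higher and lower where both matter, and medians are log2 differences over the MRP genes tested. The cause of a change was not tested unless the setting shows it. Against controls, scaling on spike-ins, which moved the median of all genes by -1.20, -1.51, -1.36, -0.99, and -2.05 in the 5 exposures, gave 48 calls after x-rays, 3 at 25%, and 75 after neutrons, and medians of -1.72, -1.47, -1.43, -0.95, and -2.31. Neutrons then gave 7 calls and a median of -0.72 against x-rays, and 17 calls and -1.44 against the 25% field. After normexp the counts were 0, 0, 1, 0, and 1 against controls and 0 for neutrons against the 25% field. The medians were then -1.31 at 5%, -0.69 at 25%, and -1.42 after neutrons, -0.25 and -0.38 for the 5% field and neutrons against x-rays, and -0.86 for neutrons against the 25% field. The deposited table gave 11 calls at 5%, 41 and a median of -0.88 after neutrons, and 2 for neutrons against x-rays. The 75th percentile without the fold filter, added after seeing the data, gave 12 calls at 5%, 14 at 25%, a neutron median of -0.17, and 6 and 9 calls for neutrons against x-rays and the 25% field. Relative to the MRP median of each array, also added, which left 19 MRP genes tested, the counts were 7 at 15%, 12 after neutrons, 3 for neutrons against x-rays, and 0 against the 25% field. Neutrons against x-rays also gave 4 calls on the 75th percentile, 5 on probes detected on all arrays, 1 with quantile normalization, 3 without the fold filter, and 3 with signal well above background on all 12 arrays. Without the fold filter neutrons against the 25% field gave 8.

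A single model over 36 arrays gave 16 calls after x-rays, 6 after neutrons, and 3, 9, 3, and 2 against x-rays. Array weights gave 35, 21, and 29 after x-rays and at 5 and 15%, and 1, 5, 3, and 6 against x-rays. The adjusted p alone, a wider threshold by construction, gave 45, 20, 24, 20, and 46 against controls, 5, 1, and 8 for the 15% and 25% fields and neutrons against x-rays, and 10 for neutrons against the 25% field. The replicate number does not pair the arrays: same-numbered arrays of different groups correlated at a mean of 0.037 (90 pairs, lowest -0.75), against -0.0062 for 450 other pairs. With it as a replicate block the counts were 2, 4, and 6 after x-rays and at 5 and 15%, and 2 for the 25% field against x-rays, while the others stayed within 1.5-fold, with 22 after neutrons. The slide as a block gave 1, 0, and 0 after x-rays and at 5 and 15%, and 2 for neutrons against the 25% field, and the session as a block gave 0 and 0 at 5 and 15%. No session block could be fitted for the 25% field or neutrons against controls or x-rays.

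Leaving out 1 array at a time, counts ran from 3 to 21 after x-rays, 6 to 12 at 5%, 8 to 15 at 15%, 6 to 9 at 25%, and 22 to 25 after neutrons. Medians ran from -0.94 to -0.63, -0.39 to -0.09, -0.50 to -0.16, -0.36 to -0.02, and -0.58 to -0.46. Against x-rays the counts were 0 to 0, 0 to 1, 0 to 1, and 0 to 4, with medians of 0.33 to 0.63, 0.22 to 0.57, 0.40 to 0.70, and -0.03 to 0.24. The 1 call came without replicate 3 of the 15% field and without replicate 3 of the 25% field, and neutrons gave 2 without x-ray replicate 1. Neutrons against the 25% field gave 5 to 6, with medians of -0.49 to -0.27.

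Among named genes 22 values turned sign where the value was called before or after. After neutrons relative to spike-ins they were Mrpl20 -1.59, Mrpl30 -1.43, Mrpl32 -0.38, Mrpl57 -1.83, Mrps14 -1.62, Mrps21 -0.95, and Mrps36 -1.49, and after normexp Mrpl32 -0.17 and Mrps21 -0.77. At 5% after normexp they were Mrpl20 -0.64, Mrpl30 -1.32, Mrpl32 -0.16, Mrpl57 -0.82, and Mrps14 -0.28, and relative to spike-ins Mrpl30 -0.38 and Mrpl57 -0.15. At 15% relative to spike-ins they were Mrpl30 -0.21, Mrpl57 -0.10, and Mrps36 -0.37, and Mrps36 was -0.30 in the deposited table, -0.12 on probes detected on all arrays, and -0.13 with quantile normalization. The probe standing for a gene was chosen anew in each of these settings. A turn of Mrps36, whose probes disagree, need not be an effect of the scaling. Of the other values of named genes under these settings, 1493 kept their side of the threshold, 148 passed it newly, and 132 no longer did. Of the 1493, 82 turned sign without being called, such as Mrpl12 and Mrpl38 at 15% with the session as a block (0.79 and 0.45). Signal over background limits the dimmest genes, such as Mrps25 and the second Mrps14 probe.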
